A study of Mus musculus with 8 samples.

Results

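The cell cycle and DNA replication genes are 55 listed genes that act in the copying of DNA, in entry into mitosis and in the separation of chromosomes and cells. They are a list by name, drawn up with earlier results of these data known, and were followed in whole-lung RNA of 8 mice by single-color Agilent arrays. All 55 had a probe, and 54 were measured, that is, brighter than the local background by the scanner's own test in both mice of 1 group or more. They are 54 of 28992 genes or unnamed transcripts measured. Ccne2, the cyclin E2 gene, passed that test (well above background, hereafter) on no array and has no value here. Of the 54, 51 were well above background on all 8 arrays.

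The mice were female BALB/c, purchased at 4 weeks of age, housed for 2 weeks and then fed freely for 70 days. NT (n = 2) received standard feed and no ovalbumin (OVA). Ctrl-F (n = 2) received standard feed, Cap-F (n = 2) feed with carbonate apatite particles that carried no oligodeoxynucleotide, and ODNcap-F (n = 2) feed with the same kind of particles holding a CpG-oligodeoxynucleotide. The latter 3 groups were sensitized by intraperitoneal OVA adsorbed to aluminum oxide gel and then challenged by inhalation of OVA, and all lungs were taken on Day 70. NT thus differs from Ctrl-F in OVA and its adjuvant, and from Cap-F and ODNcap-F in feed as well. The design asks how lung transcripts differ between unchallenged and challenged mice, and whether the feeds change them. Each array holds RNA of 1 mouse.

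A cell that divides first loads the MCM helicase onto origins of replication with the help of Cdc6, then activates it with Cdc45 and the GINS complex, while nucleotide synthesis supplies the building blocks of DNA. Cyclins switch on the cyclin-dependent kinases that drive each step, E2F factors activate the genes of replication, and Foxm1 with the MuvB complex activates those of mitosis. In mitosis the spindle, the centromeres and the chromosomal passenger complex part the chromosomes under the watch of checkpoint kinases, and the anaphase-promoting complex then marks cyclins and other proteins for destruction. In a resting adult lung most cells are out of the cycle, and in allergic inflammation lymphocytes, macrophages and epithelial cells can divide.

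Each array had 61.3% to 65.0% of its 56605 probes well above background and 0 saturated spots. Levels are log2 intensities after quantile normalization over the 8 arrays, and the brightest probe stands for a gene. Levels of different probes are not compared with each other. Differences are log2 differences between group means with the SE of 1 limma fit of all 8 arrays, and p-values were adjusted over all 37116 probes kept. A gene counts as called where it differed more than 2-fold with an adjusted p below 0.05. The p-values measure the spread between 2 mice a group, and an exact permutation test of 2 against 2 mice cannot go below a two-sided p of 0.333. All arrays were on 1 slide, NT and Ctrl-F in its row 1 and Cap-F and ODNcap-F in its row 2, so that row and group cannot be told apart in comparisons across the rows.

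The genes of replication and mitosis were higher together in the lungs of all OVA-challenged mice. Of the 54 genes, 52 were called higher and 0 lower in Ctrl-F compared to NT, against 10.5% of all genes and transcripts called higher and 12.2% called lower. The median log2 difference of the 54 was 3.30, a 9.84-fold higher level, whereas the median over all genes and transcripts was -0.12. In Cap-F, 52 were called higher and 0 lower, against 9.74% and 9.87% of all, with a median of 3.13. In ODNcap-F the counts were also 52 and 0, against 9.86% and 10.8% of all, with a median of 3.12. The 3 comparisons share the same 2 NT mice. All 54 genes passed the adjusted p in the higher direction in each comparison, compared with 26.2%, 24.1% and 25.1% of all genes and transcripts. All OVA-challenged mice lay above both NT mice in each of the 54, compared with 35.5%, 34.3% and 34.2% of all. Adjusted p-values of the 54 in Ctrl-F ranged from 4.26e-06 to 0.000333.

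The 54 genes did not rise by the same amount. The 2 that were not called were Mcm4, a subunit of the MCM helicase, with a difference of 0.84 ± 0.08 (SE), and Hmmr, which encodes a microtubule-associated protein of the spindle, with 0.86 ± 0.08. Their differences fell short of the fold threshold only. Of the genes well above background on both sides, Cdk1 differed most in Ctrl-F and in ODNcap-F, and Aurkb in Cap-F. Ttk and Kif2c were not well above background in either NT mouse, so that their folds are lower bounds. Both were kept only through the OVA-challenged mice, in which they were high. So was Chek1, which was well above background in 1 of 2 NT mice and is counted among the other 52 genes. Of these 52, 50 were called higher and 0 lower in each OVA-challenged group, with medians of 3.28, 3.06 and 3.10. With Ttk and Kif2c at their bound, the medians of the 54 were 3.28 for Ctrl-F, 3.13 for Cap-F and 3.12 for ODNcap-F. With normexp background correction of the raw signals and an offset of 50 added to them, in place of the scanner's own subtraction, the medians fell to 2.50, 2.33 and 2.43, and 52, 50 and 52 genes were called.

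**Figure D1:**
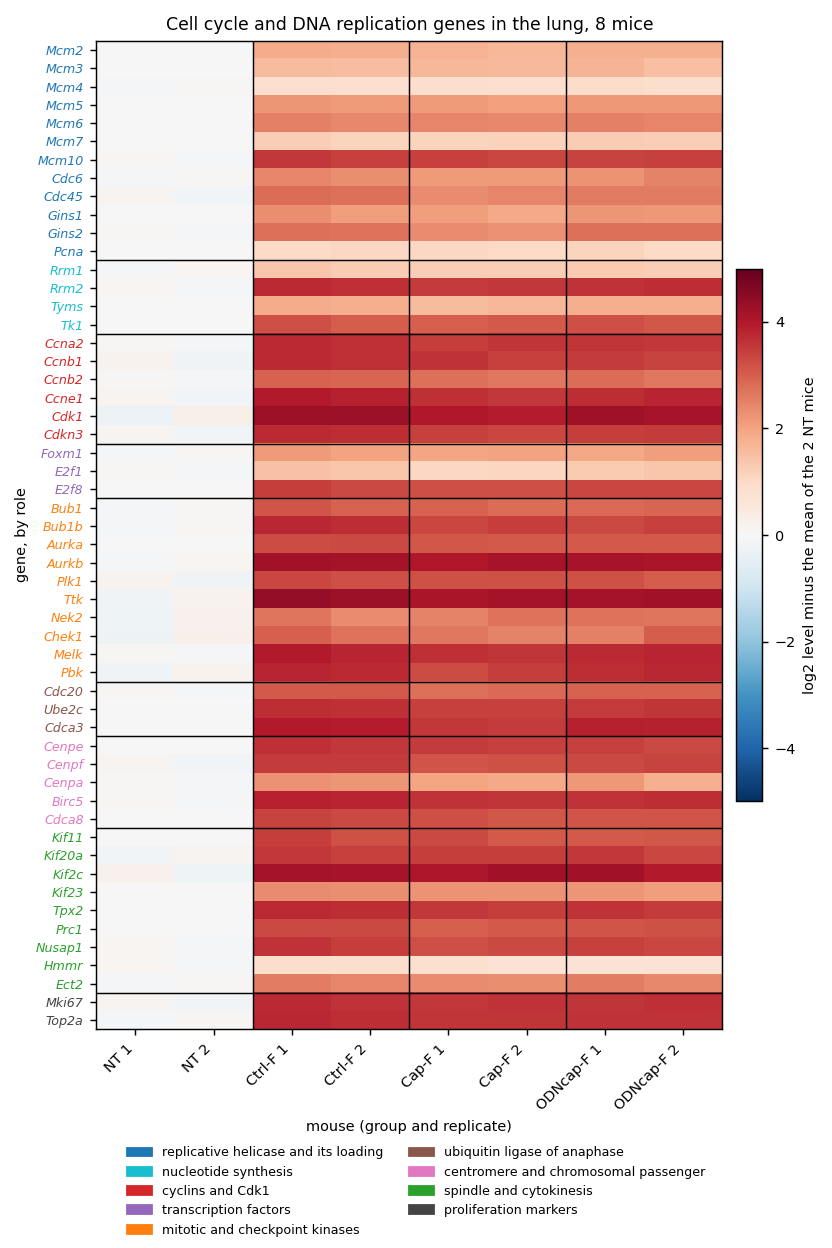
Log2 level of each of the 54 genes (rows, grouped and coloured by role) in each of the 8 mice (columns), as the difference from the mean of the 2 NT mice; red is higher and blue is lower. The 6 OVA-challenged mice are red in every row and differ little from each other, and Mcm4, Pcna and Hmmr are the palest rows.

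Genes of the replicative helicase and its loading formed the group with 12 members, of which 11 were called higher in each of the 3 OVA-challenged groups. Their median difference in Ctrl-F was 2.18, a 4.52-fold higher level, and the range was 0.84 to 3.47. Mcm10, which helps to switch on the loaded helicase, had the largest difference of the group. Its log2 level was 6.53 and 6.39 in the NT mice, 9.9983 and 9.86 in Ctrl-F, 9.87 and 9.80 in Cap-F and 9.84 and 9.88 in ODNcap-F. The difference from NT was 3.47 ± 0.08 in Ctrl-F (95% interval 3.26 to 3.68, adjusted p = 5.64e-06), and 3.37 in Cap-F and 3.40 in ODNcap-F. Cdc45, the helicase's essential cofactor, was at 4.50 and 4.23 in the NT mice, 7.16 and 7.13 in Ctrl-F, 6.73 and 6.83 in Cap-F and 6.97 and 6.96 in ODNcap-F. All 6 OVA-challenged mice lay above the NT mice, and the difference was 2.78 ± 0.10 in Ctrl-F and 2.41 in Cap-F and 2.60 in ODNcap-F. Gins2, a subunit of the GINS complex that binds the helicase with Cdc45, was at 7.28 and 7.19 in the NT mice, 10.0009 and 9.97 in Ctrl-F, 9.59 and 9.52 in Cap-F and 9.97 and 9.98 in ODNcap-F. Both Cap-F mice lay below the other 4 OVA-challenged mice, and the differences from NT were 2.75 ± 0.07 in Ctrl-F, 2.74 in ODNcap-F and 2.32 in Cap-F. The 6 subunits of the MCM ring itself differed less, from 0.84 for Mcm4 and 1.16 for Mcm7 to 2.16 for Mcm5 and 2.47 for Mcm6 in Ctrl-F. Pcna, the sliding clamp of the DNA polymerases that also serves in DNA repair, was higher by 1.01 ± 0.07 in Ctrl-F, just past the fold threshold.

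The 4 genes of nucleotide synthesis were all called higher in each OVA-challenged group, with a median difference of 2.49 in Ctrl-F. Rrm2 encodes the subunit of ribonucleotide reductase that is made in S phase. Its level was 9.06 and 8.95 in the NT mice, 12.75 and 12.68 in Ctrl-F, 12.49 and 12.56 in Cap-F and 12.62 and 12.69 in ODNcap-F. It rose by 3.70 ± 0.08 in Ctrl-F (adjusted p = 4.85e-06), while Rrm1, the large subunit of the same enzyme, rose by 1.33 ± 0.09. Tk1, the thymidine kinase of dividing cells, was at 7.71 and 7.71 in the NT mice, 10.93 and 10.75 in Ctrl-F, 10.71 and 10.76 in Cap-F and 10.95 and 10.81 in ODNcap-F. Its difference in Ctrl-F was 3.13 ± 0.09, and that of Tyms, which makes thymidylate, was 1.84 ± 0.07.

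Cdk1, its cyclins and the phosphatase gene Cdkn3 were called higher in 6 of 6 cases in each OVA-challenged group, with a median fold of 13.0 in Ctrl-F. Cdk1 is the kinase that starts mitosis. Its level was 4.61 and 5.21 in the NT mice, 9.20 and 9.24 in Ctrl-F, 8.92 and 8.85 in Cap-F and 9.17 and 9.05 in ODNcap-F. The NT mice were 0.60 apart, the widest gap of any of the 54 genes in NT, and the difference from NT was 4.31 ± 0.19 in Ctrl-F (95% interval 3.84 to 4.77, adjusted p = 2.84e-05) and 3.97 in Cap-F and 4.20 in ODNcap-F. Ccne1 encodes cyclin E1, which acts with Cdk2 at the start of S phase, and was at 7.19 and 6.91 in the NT mice, 11.01 and 10.88 in Ctrl-F, 10.68 and 10.59 in Cap-F and 10.74 and 10.84 in ODNcap-F. It rose by 3.90 ± 0.11 in Ctrl-F, 14.9-fold. Ccna2, Ccnb1 and Ccnb2, the cyclins of S phase and mitosis, rose by 3.69 ± 0.08, 3.70 ± 0.14 and 2.93 ± 0.09 in Ctrl-F.

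Among the 3 transcription factors, all were called in each OVA-challenged group. E2f8, a repressive E2F that is itself made in S phase, was at 5.98 and 5.96 in the NT mice, 9.44 and 9.25 in Ctrl-F, 9.18 and 9.21 in Cap-F and 9.29 and 9.30 in ODNcap-F. It differed from NT by 3.38 ± 0.08 in Ctrl-F. Foxm1, an activator of mitotic genes, was at 7.55 and 7.66 in the NT mice, 9.73 and 9.63 in Ctrl-F, 9.58 and 9.61 in Cap-F and 9.55 and 9.69 in ODNcap-F. The ODNcap-F mice overlapped the mice of Ctrl-F and of Cap-F, and the difference in Ctrl-F was 2.08 ± 0.08. E2f1, an activator of replication genes, was at 8.26 and 8.12 in the NT mice, 9.66 and 9.57 in Ctrl-F, 9.21 and 9.25 in Cap-F and 9.51 and 9.57 in ODNcap-F. Its differences were 1.43 ± 0.08 in Ctrl-F, 1.35 ± 0.08 in ODNcap-F and 1.04 ± 0.08 in Cap-F, so that the Cap-F mice again lay below the other OVA-challenged mice.

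All 10 mitotic and checkpoint kinases were called higher in each OVA-challenged group, with a median fold of 11.3 in Ctrl-F. Ttk encodes the kinase that starts the spindle checkpoint. It was at 3.26 and 3.62 in the NT mice, 7.83 and 7.73 in Ctrl-F, 7.54 and 7.61 in Cap-F and 7.62 and 7.62 in ODNcap-F. Neither NT value was well above background, and the level in Ctrl-F was at least 17.8-fold higher (adjusted p = 7.51e-06, a value that rests on NT signals below background), with at least 15.4-fold in Cap-F and at least 15.9-fold in ODNcap-F. Here the bound sets the mean of the OVA-challenged mice against, on each NT array, the higher of the lowest signal well above background and the probe's own signal. Aurkb, the kinase of the chromosomal passenger complex, was at 5.20 and 5.43 in the NT mice, 9.53 and 9.49 in Ctrl-F, 9.34 and 9.43 in Cap-F and 9.45 and 9.40 in ODNcap-F. It rose by 4.19 ± 0.10 in Ctrl-F, 18.2-fold, and by 4.07 in Cap-F and 4.11 in ODNcap-F. Melk, a kinase gene transcribed in mitosis, was at 5.15 and 5.01 in the NT mice, 9.06 and 8.90 in Ctrl-F, 8.73 and 8.65 in Cap-F and 8.82 and 8.88 in ODNcap-F. The difference in Ctrl-F was 3.90 ± 0.09. Plk1 and Aurka, kinases of mitotic entry and spindle assembly, rose by 3.28 ± 0.12 and 3.29 ± 0.06. Replicate mice of 1 group were furthest apart in Nek2 for Ctrl-F and Cap-F, by 0.35 and 0.22, and in Chek1 for ODNcap-F, by 0.52. Chek1, the checkpoint kinase of stalled replication, was well above background in 1 of 2 NT mice, was at 3.49 and 3.97 in the NT mice, 6.73 and 6.46 in Ctrl-F, 6.37 and 6.21 in Cap-F and 6.25 and 6.77 in ODNcap-F, and rose by 2.87 ± 0.23 in Ctrl-F.

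The 3 genes listed under the anaphase-promoting complex were called higher in each OVA-challenged group. Cdca3, which encodes a protein that promotes mitotic entry, had the smallest p of the 54 genes in Ctrl-F. Its level was 6.87 and 6.91 in the NT mice, 10.84 and 10.83 in Ctrl-F, 10.43 and 10.39 in Cap-F and 10.79 and 10.75 in ODNcap-F. The difference from NT was 3.94 ± 0.06 in Ctrl-F (95% interval 3.79 to 4.09, adjusted p = 4.26e-06), 3.87 ± 0.06 in ODNcap-F and 3.51 ± 0.06 in Cap-F. Ube2c, the ubiquitin-conjugating enzyme of the complex, was at 7.48 and 7.42 in the NT mice, 11.15 and 11.11 in Ctrl-F, 10.86 and 10.85 in Cap-F and 10.94 and 11.01 in ODNcap-F. It rose by 3.68 ± 0.07 in Ctrl-F. Cdc20, the complex's activator at the end of metaphase, rose by 3.07 ± 0.07.

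The 5 genes of the centromere and the chromosomal passenger complex were all called in each group, with a median fold of 11.3 in Ctrl-F. Birc5 encodes survivin, a passenger protein. It was at 9.47 and 9.32 in the NT mice, 13.29 and 13.20 in Ctrl-F, 13.00 and 12.98 in Cap-F and 13.01 and 13.10 in ODNcap-F. The difference was 3.85 ± 0.08 in Ctrl-F, 14.4-fold, and 3.59 in Cap-F and 3.67 in ODNcap-F. Cenpe, the motor protein of the kinetochore, was at 7.73 and 7.66 in the NT mice, 11.33 and 11.24 in Ctrl-F, 11.20 and 11.11 in Cap-F and 11.10 and 11.01 in ODNcap-F. It rose by 3.59 ± 0.08 in Ctrl-F. The smallest difference of the group was that of Cenpa, the histone variant that marks the centromere, with 2.24 ± 0.13.

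Of the 9 genes of the spindle and of cytokinesis, 8 were called in each OVA-challenged group. Kif2c, a motor protein that takes microtubules apart, was at 2.94 and 2.48 in the NT mice, 6.87 and 6.82 in Ctrl-F, 6.75 and 6.90 in Cap-F and 6.91 and 6.66 in ODNcap-F. With neither NT value well above background, its level was at least 9.31-fold higher in Ctrl-F (adjusted p = 2.29e-05, with the same limit), at least 9.18-fold in Cap-F and at least 8.94-fold in ODNcap-F. Tpx2, the spindle protein that activates Aurora A, was at 5.69 and 5.67 in the NT mice, 9.41 and 9.36 in Ctrl-F, 9.20 and 9.12 in Cap-F and 9.29 and 9.18 in ODNcap-F. The OVA-challenged mice all lay above 9.10, and the difference in Ctrl-F was 3.71 ± 0.07. Nusap1, which bundles spindle microtubules, was at 6.65 and 6.46 in the NT mice, 10.15 and 10.02 in Ctrl-F, 9.79 and 9.86 in Cap-F and 9.97 and 9.88 in ODNcap-F. It rose by 3.53 ± 0.10 in Ctrl-F. Kif11, Kif20a and Kif23, motors of the spindle and its midzone, rose by 3.32 ± 0.11, 3.48 ± 0.12 and 2.34 ± 0.07.

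Mki67, the gene of the proliferation marker Ki-67, was at 9.66 and 9.41 in the NT mice, 13.27 and 13.15 in Ctrl-F, 13.09 and 13.13 in Cap-F and 13.10 and 13.17 in ODNcap-F. All 6 OVA-challenged mice lay between 13.09 and 13.27, and the difference from NT was 3.67 ± 0.10 in Ctrl-F (95% interval 3.42 to 3.92, 12.7-fold, adjusted p = 6.87e-06), 3.60 ± 0.10 in ODNcap-F and 3.57 ± 0.10 in Cap-F. Top2a, the topoisomerase that untangles replicated chromosomes, was at 7.60 and 7.70 in the NT mice, 11.43 and 11.32 in Ctrl-F, 11.24 and 11.21 in Cap-F and 11.25 and 11.25 in ODNcap-F. It rose by 3.73 ± 0.07 in Ctrl-F, 13.3-fold, and by 3.58 in Cap-F and 3.60 in ODNcap-F.

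By role class, the 16 genes of helicase loading and nucleotide synthesis had a median difference of 2.18 in Ctrl-F, with a range of 0.84 to 3.70, and the other 38 a median of 3.51, with a range of 0.86 to 4.34 by fitted values. The corresponding medians were 2.03 and 3.32 in Cap-F and 2.18 and 3.36 in ODNcap-F. The ranges overlap, and no test was made of this difference between groups of genes.

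**Figure D2:**
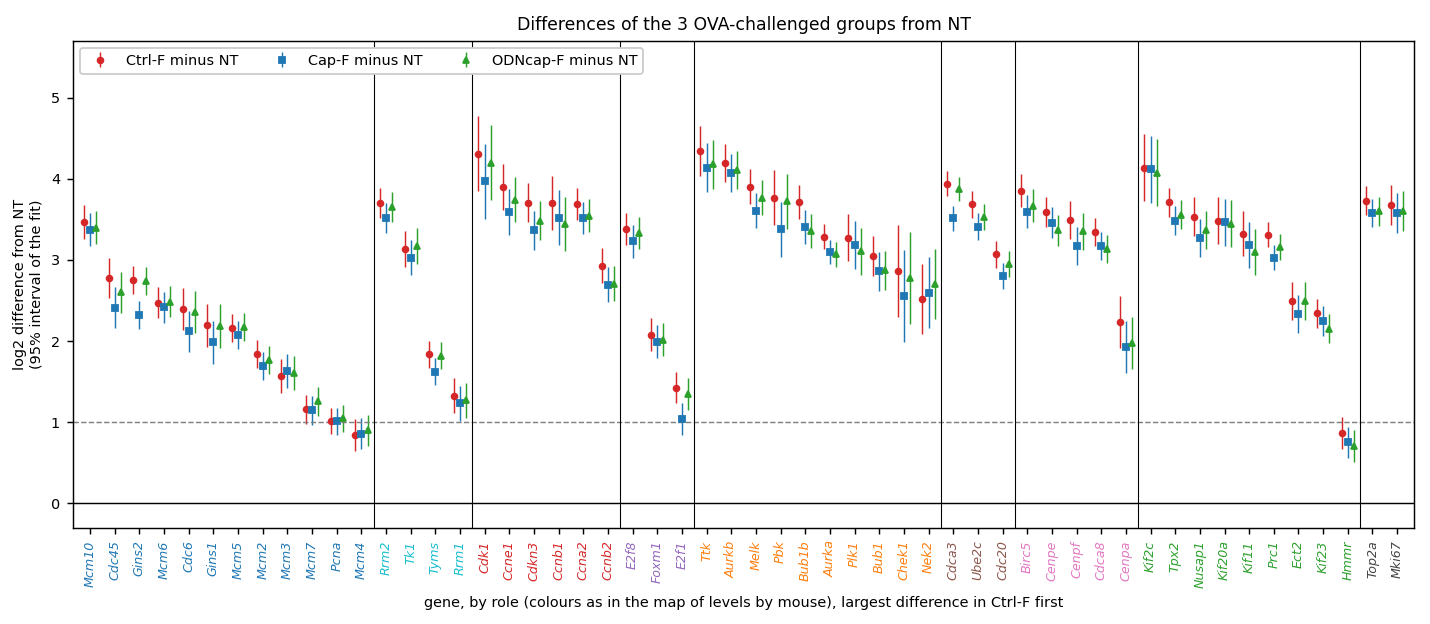
Log2 difference from NT (vertical axis) of each of the 54 genes (horizontal axis, by role) in Ctrl-F (red circles), Cap-F (blue squares) and ODNcap-F (green triangles), with 95% intervals of the fit; the dashed line is the fold threshold of 2. The points of Mcm4 and Hmmr lie under the dashed line, and all others lie above it. The fitted values of Ttk and Kif2c are drawn, whose NT levels were not well above background.

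A gene can be measured by several probes, and 25 of the 54 genes had more than 1. All 83 probes kept passed the adjusted p in the higher direction in each OVA-challenged group, and 80 of them were called in Ctrl-F and in Cap-F and 81 in ODNcap-F. Of the 83, 11 probes of 7 genes were not well above background in either NT mouse. They were kept only through the OVA-challenged mice, so that the filter in part fixed their direction. In 19 genes at least 2 probes were well above background in an NT mouse, and the differences of such probes in Ctrl-F lay at most 0.68 apart, for Cdc45. Hmmr stood apart. Its brightest probe was well above background on all arrays and 1.82-fold higher in Ctrl-F, whereas its other probes were not well above background in NT and were at least 19.2-fold and at least 13.1-fold higher. Ccnb1 also had such probes, at least 9.96-fold and at least 13.7-fold higher beside 13.0-fold for the brightest. With the mean of a gene's probes in place of the brightest, 53 of 54 genes were called in Ctrl-F.

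The promoters of these genes are known to hold DNA elements that time their transcription. The cell cycle gene homology region (CHR), read by the MuvB complex, goes with mitotic genes, often beside CCAAT boxes bound by NF-Y, and E2F sites go with replication genes. Windows of 250 bases before to 50 bases after the RefSeq start (assembly GRCm38.p6) were found for 45 of the 55 genes. Aurkb, Ccna2, Ccne2, Foxm1, Gins1, Gins2, Kif20a, Mcm4, Pbk and Tpx2 had no entry. On both strands, a search was made for the CHR letters TTTGAA or TTCGAA, for CCAAT, and for the E2F letters TTCCCGC or TTGGCGC or TTCGCGC or TTGCCGC. Of 27 E2F matches in these genes' windows, 6 overlapped a CCAAT match.

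A CHR match in the last 100 bases of the window was found in 21 of the 45 genes, 46.7%, compared with 36.6% of 71 other cell cycle genes and 6.12% of all 27025 genes with a window. All of these 21 also held CCAAT, a combination found in 28.2% of the 71 other cell cycle genes and in 2.99% of all genes. By role, the CHR match stood in 19 of 30 genes of mitosis and the cyclins, 63.3%, and in 1 of 13 genes of replication and nucleotide synthesis, 7.69%. E2F letters anywhere in the 300-base window stood in 53.8% of the latter and 20.0% of the former. In the last 100 bases alone they stood in 23.1% and 6.67%. Over the 45 genes the E2F share in the whole window was 31.1%, compared with 49.3% of the other cell cycle genes and 10.9% of all genes. In the last 100 bases these E2F shares were 11.1%, 42.3% and 4.47%. CCAAT in the window was found in 77.8% of the 45, in 63.4% of the other cell cycle genes and in 41.1% of all. The 21 genes with a CHR match near the start had a median difference of 3.31 in Ctrl-F, and the other 24 had 3.0. The 14 genes with E2F letters anywhere in the window had a median of 2.48, and the other 31 had 3.32. In both splits the values of the genes overlapped, and Ttk and Kif2c, whose folds are bounds, enter with fitted values. The matches are letters in a window and do not show binding.

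As examples, 3 windows of mitotic genes with a CHR match beside CCAAT, that of Cdk1 with CHR, CCAAT and E2F letters, and 2 of the MCM ring with E2F letters are printed 5′ to 3′ on the strand of the gene, with the matches in capitals. They lie at chr4:118437294-118437593 (minus strand) for Cdc20, chr7:122159185-122159484 (plus strand) for Plk1, chr9:70421505-70421804 (minus strand) for Ccnb2, chr10:69352863-69353162 (minus strand) for Cdk1, chr8:75109259-75109558 (plus strand) for Mcm5 and chr1:128359656-128359955 (minus strand) for Mcm6.
Cdc20: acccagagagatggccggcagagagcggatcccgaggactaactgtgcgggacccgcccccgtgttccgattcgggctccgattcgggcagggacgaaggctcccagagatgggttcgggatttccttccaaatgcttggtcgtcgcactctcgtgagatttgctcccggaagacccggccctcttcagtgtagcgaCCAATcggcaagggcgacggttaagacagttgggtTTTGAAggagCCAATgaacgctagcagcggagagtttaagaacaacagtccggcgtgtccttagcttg
Plk1: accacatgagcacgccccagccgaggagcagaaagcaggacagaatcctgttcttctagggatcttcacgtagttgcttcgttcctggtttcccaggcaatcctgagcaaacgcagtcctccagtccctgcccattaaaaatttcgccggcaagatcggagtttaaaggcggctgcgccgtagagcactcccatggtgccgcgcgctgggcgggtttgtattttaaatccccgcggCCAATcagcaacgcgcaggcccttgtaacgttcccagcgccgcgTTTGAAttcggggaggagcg
Ccnb2: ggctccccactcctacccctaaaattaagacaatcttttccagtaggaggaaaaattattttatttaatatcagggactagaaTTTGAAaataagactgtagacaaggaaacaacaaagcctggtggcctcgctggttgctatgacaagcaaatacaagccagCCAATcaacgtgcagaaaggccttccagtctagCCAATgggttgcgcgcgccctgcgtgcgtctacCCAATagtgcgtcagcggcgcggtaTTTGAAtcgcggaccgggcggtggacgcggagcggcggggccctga
Cdk1: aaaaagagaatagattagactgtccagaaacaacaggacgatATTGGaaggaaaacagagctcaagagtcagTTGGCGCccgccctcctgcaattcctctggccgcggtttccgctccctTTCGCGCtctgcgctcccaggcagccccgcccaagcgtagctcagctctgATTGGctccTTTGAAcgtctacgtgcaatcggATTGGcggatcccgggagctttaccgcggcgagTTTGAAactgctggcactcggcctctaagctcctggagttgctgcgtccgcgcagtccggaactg
Mcm5: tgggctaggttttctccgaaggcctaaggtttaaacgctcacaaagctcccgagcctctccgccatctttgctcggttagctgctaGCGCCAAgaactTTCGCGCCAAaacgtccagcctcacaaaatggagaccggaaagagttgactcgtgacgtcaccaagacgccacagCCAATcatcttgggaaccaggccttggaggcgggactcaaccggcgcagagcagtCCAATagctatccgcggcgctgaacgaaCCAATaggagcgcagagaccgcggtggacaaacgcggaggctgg
Mcm6: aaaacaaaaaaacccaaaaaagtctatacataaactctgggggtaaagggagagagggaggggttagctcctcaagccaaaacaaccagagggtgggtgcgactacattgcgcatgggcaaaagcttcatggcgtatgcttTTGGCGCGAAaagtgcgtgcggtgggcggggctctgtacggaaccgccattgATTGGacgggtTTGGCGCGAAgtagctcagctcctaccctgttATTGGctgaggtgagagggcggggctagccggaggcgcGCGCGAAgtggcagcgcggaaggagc

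In the windows of Cdc20, Plk1, Ccnb2 and Cdk1 the letters TTTGAA stand in the same orientation as the gene, and in Mcm5 and Mcm6 no CHR letters were found. These genes rose by 3.07, 3.28, 2.93, 4.31, 2.16 and 2.47 in Ctrl-F.

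Among the OVA-challenged groups, none of the 54 genes was called by limma, nor by the local-pooled-error test, which takes a probe's variance from probes of like intensity. In ODNcap-F compared to Ctrl-F, 0 genes passed, against 0% of all genes and transcripts, and the smallest adjusted p was 0.649. At an unadjusted p under 0.05, 6 of the 54 were lower, against 3.09% of all. The median difference was -0.10, with 45 genes lower and 9 higher by sign, and was -0.06 without Ctrl-F mouse 1 and -0.14 without Ctrl-F mouse 2. Both ODNcap-F mice lay below both Ctrl-F mice in 31 genes, 18.6% being the share over all genes and transcripts, and above them in 2, with 17.0% over all. Ordered by p, Bub1b, Aurka and Cdca8 came first. Bub1b, a spindle checkpoint kinase gene, was at 4.89 and 5.01 in the NT mice, 8.71 and 8.62 in Ctrl-F, 8.30 and 8.41 in Cap-F and 8.26 and 8.36 in ODNcap-F. Both ODNcap-F mice lay below the Ctrl-F mice and overlapped the Cap-F mice, and the difference ODNcap-F minus Ctrl-F was -0.36 ± 0.08 (adjusted p = 0.649). Aurka was at 8.35 and 8.33 in the NT mice, 11.60 and 11.65 in Ctrl-F, 11.46 and 11.41 in Cap-F and 11.42 and 11.40 in ODNcap-F, a difference of -0.22 ± 0.06. Cdca8, the gene of the passenger protein borealin, was at 8.24 and 8.26 in the NT mice, 11.63 and 11.55 in Ctrl-F, 11.47 and 11.37 in Cap-F and 11.38 and 11.38 in ODNcap-F, with -0.21 ± 0.07. By role, all 6 genes of the cyclin group and all 5 of the centromere group were lower by sign in ODNcap-F than in Ctrl-F, and of the 12 genes of the helicase group 6 were lower and 6 higher.

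In ODNcap-F compared to Cap-F, 0 of the 54 were called, against 0.00345% of all, and the smallest adjusted p was 0.191. Before adjustment, 5 were higher with a p under 0.05, against 5.98% of all. The median difference was 0.07, with 42 genes higher by sign. Both ODNcap-F mice lay above both Cap-F mice in 28 genes, against 21.0% of all, and below them in 4, against 24.7%. Gins2, Cdca3 and E2f1 had the smallest p, with differences of 0.42 ± 0.07, 0.36 ± 0.06 and 0.31 ± 0.08 and adjusted p-values of 0.191, 0.197 and 0.257.

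Cap-F compared to Ctrl-F gave 0 called genes, against 0.00345% of all, and the smallest adjusted p was 0.118. The median difference was -0.18, with 51 of the 54 lower by sign, and 22 were lower at an unadjusted p under 0.05, against 7.65% of all. Both Cap-F mice lay below both Ctrl-F mice in 42 genes, against 25.8% of all, and above them in 1, against 25.9%. The same Cdca3, Gins2 and E2f1 came first by p, with -0.43 ± 0.06, -0.43 ± 0.07 and -0.39 ± 0.08 and adjusted p-values of 0.118, 0.13 and 0.16. These 3 comparisons share mice, and slide row and group cannot be told apart in both comparisons with Ctrl-F, whereas ODNcap-F and Cap-F lay in the same row.

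These differences were small beside those from NT. The 95% intervals of all 54 genes lay within a 2-fold change in each of the 3 comparisons. In ODNcap-F compared to Ctrl-F the bounds ran from -0.66 for Chek1 to 0.62 for Nek2, that is, from 1.58-fold lower to 1.54-fold higher. For ODNcap-F minus Cap-F the bounds ran from -0.45 for Kif2c to 0.79 for Chek1. For Cap-F minus Ctrl-F they ran from -0.88 for Chek1 to 0.51 for Nek2. By mouse, the median level of the 54 genes above the NT mean was 3.32 and 3.26 in Ctrl-F, 3.13 and 3.07 in Cap-F, and 3.14 and 3.11 in ODNcap-F. Both Ctrl-F mice thus lay above the other 4 OVA-challenged mice in that median. In Ctrl-F, mouse 2 exceeded mouse 1 in 4 of the 54 genes, and in ODNcap-F in 26.

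**Figure D3:**
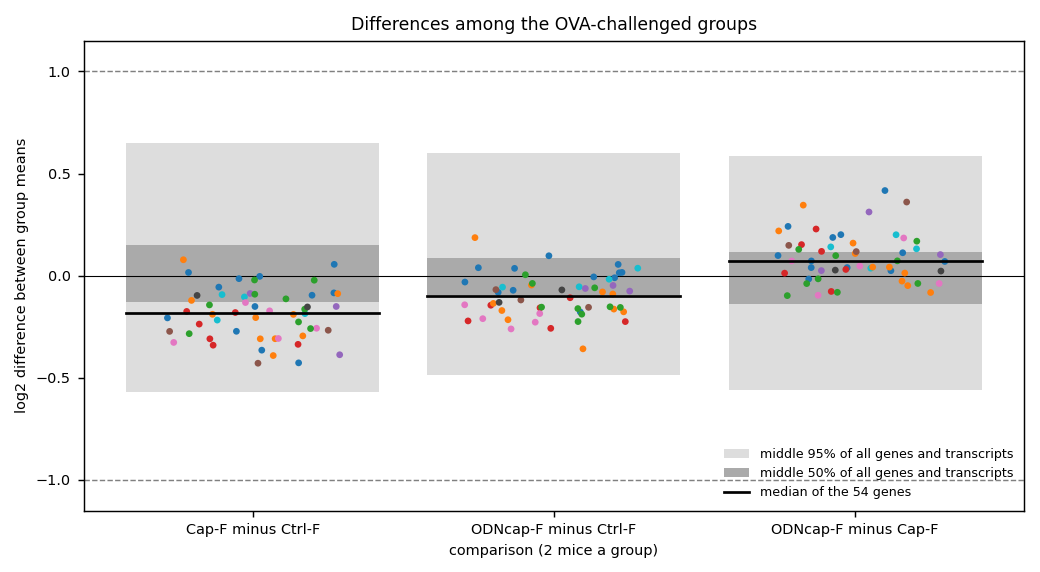
Log2 difference between group means (vertical axis) of the 54 genes (points, coloured by role as in the map of levels by mouse) in the 3 comparisons among OVA-challenged groups, with the median of the 54 (black bar) and the middle 50% and 95% of all 28992 genes and transcripts (dark and light grey); dashed lines mark 2-fold. The medians are -0.18, -0.10 and 0.07, and no point reaches a dashed line.

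Other genes of the cell cycle moved with the 54. Of 90 further genes of replication, chromosome condensation, the kinetochore and cell division, 77 were called higher and 0 lower in Ctrl-F. The counts were 75 and 0 in Cap-F, and 76 and 0 in ODNcap-F, and the medians were 2.43, 2.27 and 2.38. Of all genes and transcripts, 10.5%, 9.74% and 9.86% were called higher in these groups, and 12.2%, 9.87% and 10.8% lower. In NT, 6 of the 90 were not well above background. These 6 were kept only through the OVA-challenged mice and are among the genes called higher in each OVA-challenged group. With these at their bounds, the medians were 2.31, 2.15 and 2.20. The smallest p in Ctrl-F belonged to Ncapg, a condensin subunit, Sgo1, the guardian of centromeric cohesion, Shcbp1, Ckap2 and Nuf2, a subunit of the kinetochore's Ndc80 complex. Ncapg was at 6.64 and 6.62 in the NT mice, 11.27 and 11.19 in Ctrl-F, 11.14 and 10.99 in Cap-F and 11.04 and 11.02 in ODNcap-F. It rose by 4.60 ± 0.08 in Ctrl-F, and Sgo1, Shcbp1, Ckap2 and Nuf2 rose by 4.03 ± 0.07, 4.15 ± 0.09, 3.60 ± 0.08 and 3.85 ± 0.09. In the 3 comparisons among OVA-challenged groups limma called 0 of the 90. With an unadjusted p under 0.05, Cap-F minus Ctrl-F gave 19 lower and 1 higher of the 90, against 7.65% and 8.99% of all genes and transcripts. ODNcap-F minus Ctrl-F gave 2 lower, against 3.09% of all. ODNcap-F minus Cap-F gave 9 higher and 1 lower, against 5.98% and 7.40% of all.

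Genes that hold the cycle back or govern its start did not move together. Over all genes and transcripts, 10.5% were called higher and 12.2% lower in Ctrl-F. These shares were 9.74% and 9.87% in Cap-F, and 9.86% and 10.8% in ODNcap-F. Of 19 inhibitor genes 1 was called higher and 1 lower in each OVA-challenged group, with a median difference of 0.06 in Ctrl-F. The gene called higher was Cdkn2a, which encodes p16 and p19Arf, at 5.93 and 5.80 in the NT mice, 8.58 and 8.75 in Ctrl-F, 8.61 and 8.24 in Cap-F and 8.42 and 8.77 in ODNcap-F. Its difference was 2.80 ± 0.17 in Ctrl-F. Cdkn1c, which encodes the Cdk inhibitor p57, was called lower, at 12.73 and 13.08 in the NT mice, 10.76 and 10.92 in Ctrl-F, 10.92 and 11.27 in Cap-F and 11.08 and 11.16 in ODNcap-F. It differed by -2.06 ± 0.16 in Ctrl-F. Of the other inhibitors with small p, Cdkn1b, the gene of p27, differed by -0.75 ± 0.08, Cdkn2d by 0.45 ± 0.07 and Rbl1 by 0.65 ± 0.11, all under the fold threshold.

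Among 9 regulators of G1, the phase before replication, E2f3 and Myc were called higher in each group. Their differences in Ctrl-F were 2.42 ± 0.10 and 1.92 ± 0.08. Mycn was called lower in Ctrl-F, with -1.27 ± 0.12, and differed by -0.83 ± 0.12 in Cap-F and -0.94 ± 0.12 in ODNcap-F, where it was not called. Cdk2 and Cdk4 differed by 0.79 ± 0.11 and 0.30 ± 0.06 in Ctrl-F, less than 2-fold.

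**Figure D4:**
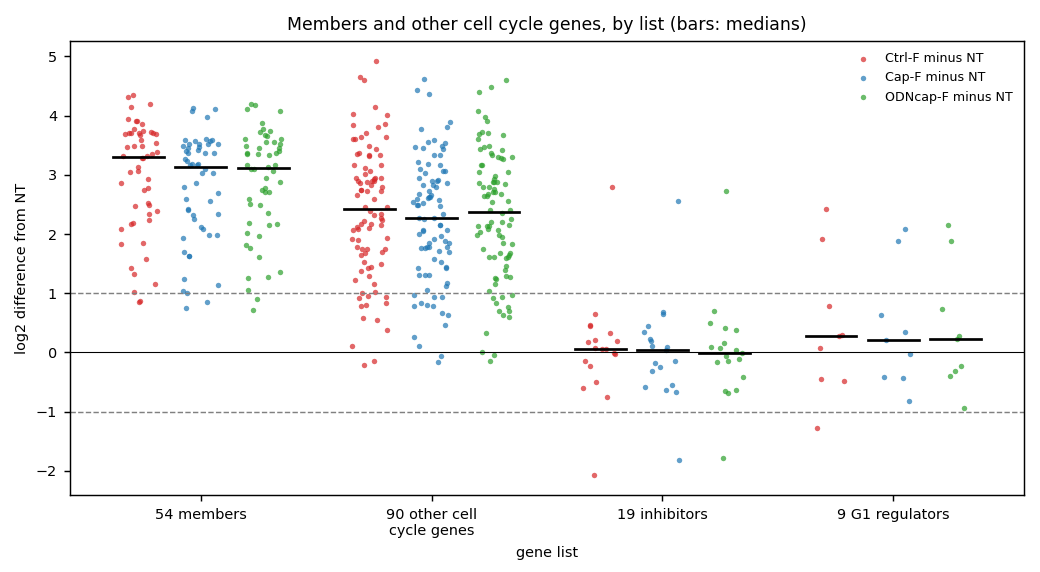
Log2 difference from NT (vertical axis) of each gene in the 54 cell cycle and replication genes, 90 other cell cycle genes, 19 inhibitors and 9 regulators of G1 (horizontal axis), in Ctrl-F (red), Cap-F (blue) and ODNcap-F (green); bars are medians and dashed lines mark 2-fold. The medians of the former lists lie above 2, and those of the inhibitors and G1 regulators in Ctrl-F are 0.06 and 0.28.

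Markers of some other cell types also differed between NT and the OVA-challenged mice. In whole-lung RNA, more cells of a type and more RNA per cell cannot be told apart. For comparison, 10.5% of all genes and transcripts were called higher and 12.2% lower in Ctrl-F. The shares were 9.74% and 9.87% in Cap-F, and 9.86% and 10.8% in ODNcap-F. Of 6 plasma cell markers 4 (Jchain, Mzb1, Derl3 and Tnfrsf17) were called higher in each OVA-challenged group, and their list's summed signal was 34200 to 34300 in NT and 163000 to 189000 in the OVA-challenged mice. Such sums of unlogged signals weigh the brightest probes of a list most and do not give the fold of a typical marker. For plasma cells the brightest in NT was Xbp1, at 14.86 and 14.88, and the list's median log2 difference in Ctrl-F was 5.12. Of 6 B cell markers 5 were called higher in Ctrl-F, with sums of 8680 to 12200 in NT and 32600 to 43000 in Ctrl-F. Eosinophil markers were called higher in 5 of 6 in Ctrl-F and ODNcap-F and in 6 of 6 in Cap-F. Their sums were 20900 to 21500 in NT and 44800 to 51600 in Ctrl-F. The brightest was Ear2, at 14.30 and 14.25 in the NT mice, and the list's median log2 difference in Ctrl-F was 3.02. Epx, the eosinophil peroxidase gene, was not well above background in NT. Macrophage markers were higher in 5 of 6 in Ctrl-F, and Marco was lower. Mucous cell markers were higher in 6 of 6, with sums of 1840 to 3280 in NT and 121000 to 148000 in Ctrl-F, and Foxa3 was not well above background in NT. T cell markers were called in 0 of 5 in Ctrl-F and ODNcap-F, and 1 of 5 was called higher in Cap-F. Even so, 4 of the 5 passed the adjusted p in the higher direction in each group. Those of the 4 that were not called fell short of the fold threshold only. The sums were 4380 to 5600 in NT and 7400 to 7710 in Ctrl-F. Of 5 neutrophil markers Retnlg was called higher in Ctrl-F. There, 2 (S100a8 and S100a9) were lower at an unadjusted p under 0.05, against 38.4% of all genes and transcripts. Of these 2, 1 also passed the adjusted p. S100a9 was called lower in ODNcap-F, and the sums were 42300 to 53500 in NT and 34700 to 37200 in Ctrl-F. Markers of capillary endothelium were called lower in 4 of 6, and of 5 erythroid markers 3 were called lower and 1 higher. Alveolar type 2 markers, which define lung tissue, were well above background in NT and called in 0 of 6, with 4 lower at an unadjusted p under 0.05. The adjusted p was passed in the lower direction by 3 of the 6 in Ctrl-F. In Cap-F it was passed by 4, and likewise by 4 in ODNcap-F. These markers fell short of the fold threshold only. The part of these cells in the levels of the cell cycle genes was not tested.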

How the data were processed

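Lung RNA of 8 mice (NT, n = 2; Ctrl-F, n = 2; Cap-F, n = 2; ODNcap-F, n = 2) was hybridized to 8 single-color Agilent SurePrint G3 arrays. The authors deposited the scanner output of Agilent Feature Extraction 11.0 (per the submitters' processing notes) with the background-subtracted intensity of each spot, and a table of log2 values of 32312 probes after quantile normalization.

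Starting from the intensities, control spots were left out, 792 values flagged as outliers were set to missing, and log2 intensities of 56605 probes were quantile normalized. A probe was kept, as 37116 were, if both mice of any group had it well above background. Of all probes, 32994 (58.3%) were named through their RefSeq accession, and the brightest kept probe stands for a gene. Where a group was not well above background, the fold is a bound, written "at least". Groups came from the sample titles. A single limma model of the 4 groups was fitted to all arrays without covariates (R 4.3.3, limma 3.58.1, the data.table package, version 1.17.8), with 4 residual degrees of freedom plus 1.96 from moderation. Called genes differed more than 2-fold with a p below 0.05 after Benjamini-Hochberg adjustment over all probes kept. The script was tested on simulated data. The number of arrays limits the precision.

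The genes and lists were chosen with earlier results of these data known. Values of every mouse are given for Mki67, Top2a, the genes of each role with the largest absolute difference between Ctrl-F and NT (2 a role, 3 in roles of more than 8), and up to 3 genes with the smallest p in each comparison among OVA-challenged groups. Up to 5 genes with the smallest p in Ctrl-F are named from each other list, beside Ncapg, Cdkn2a and Cdkn1c, which are given by mouse. Of the markers, Trbc2 and Ly6g had no probe, and 1 further gene is not reported here.

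Alternatives were scaling to the 75th percentile, normexp background correction (offset 50) of median signals, the deposited table, no filter, a filter on all arrays, each mouse left out, the mean of a gene's probes, the replicate number as a block, a variance trend, fits of only the 2 groups compared, other call rules, and the local-pooled-error test of the study's methods, rebuilt with 100 intensity bins and a spline of 10 degrees of freedom. Their use on the other gene lists was chosen after the data had been seen.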

Additional observations from a re-analysis of the deposited data

How the results depend on the processing

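The counts of the 54 genes called against NT ran from 49 to 54 over 20 alternatives in each OVA-challenged group, all higher. The lowest count, 49, came from the deposited table, which holds 51 of the genes. With 1 mouse left out, the counts were 52 to 52 in ODNcap-F and 51 to 52 in the others, where the lone mouse is assumed to vary like the other groups. Among the OVA-challenged groups 0 genes were called under all 20 alternatives. The medians moved by more than the spread between replicates under normexp background correction, to 2.50 (Ctrl-F), 2.33 (Cap-F) and 2.43 (ODNcap-F), and for Cap-F also with the deposited table and without NT mouse 2, to 3.05 in each case. The cause was not tested. With 1 mouse left out they ran from 3.25 to 3.31 (Ctrl-F), 3.05 to 3.14 (Cap-F) and 3.11 to 3.14 (ODNcap-F), and from -0.14 to -0.06 for ODNcap-F minus Ctrl-F, 0.07 to 0.09 for ODNcap-F minus Cap-F and -0.23 to -0.13 for Cap-F minus Ctrl-F. The replicate numbers did not pair the mice: the deviations of equal-numbered mice from their group means correlated with r between -0.012 and 0.161 over probes. With the replicate block, 52 genes were called against NT in each OVA-challenged group and 0 among these groups, so that the block changed no count. Of 1428 values of single genes recomputed, 1427 kept their direction and their side of the threshold. The exception was Cdc45 in Cap-F, with 0.95 under normexp. The 90 other cell cycle genes gave 67 to 85 calls. The 28 inhibitors and G1 regulators gave 5, 4 and 4 calls, and 16, 17 and 17 at an adjusted p with no fold threshold, since many of their differences were under 2-fold. At that rule 26.2% of all genes and transcripts were higher and 35.7% lower in Ctrl-F. The shares were 24.1% and 32.4% in Cap-F, and 25.1% and 34.9% in ODNcap-F. Under 75th percentile scaling the median of all probes against NT lay between -0.13 and -0.11. Signal over background limits Ttk and Kif2c, whose NT levels are bounds, and Ccne2, which was not measured.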
